A study of Mus musculus with 3 samples.

Results

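Potassium channel genes were examined in 3 myoblast lines, numbered 66, 67 and 72, that form 1 condition. They were chosen by name, as the protein-coding genes whose mouse symbol starts with Kcn and a further letter, which gave 94 of 35562 genes (21856 of them protein-coding). By symbol they fall into 15 inward rectifiers, 40 voltage-gated subunits, 8 calcium-activated channels and their relatives, 14 two-pore channels and 17 auxiliary subunits. The lines carry the Dmdmdx allele, edited by CRISPR/Cas9 to restore the dystrophin reading frame, and the Pax7-nGFP reporter, and come from induced pluripotent stem cells (iPSCs) of an edited clone. The iPSCs had been injected into mouse blastocysts with Pax7 Cre/ERT2 and Rosa26 lsl-DTA alleles, in which tamoxifen ablates host satellite cells, and the myoblasts grown from chimeric muscle were purified by FACS for GFP. The labels give neither the age and tamoxifen treatment of the animals nor which chimera each line came from. Libraries of other myoblasts or fibroblasts were not analysed here, so no value below is a comparison between conditions. Nothing in the labels says that the lines are from separate animals, and n = 3 counts lines throughout.

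Potassium channels let potassium leave the cell and so set the resting membrane potential. Inward rectifiers and two-pore channels pass current near rest, voltage-gated channels open on depolarization, and calcium-activated channels open when intracellular calcium rises. Auxiliary subunits have no pore of their own and change the gating or trafficking of the channels they join. In cultured human myoblasts, hyperpolarization through the inward rectifier encoded by KCNJ2 and the ether-a-go-go channel encoded by KCNH1 is known to precede fusion into myotubes.

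The pore is built around a selectivity filter, whose codons are printed here because they mark the part of each gene that passes the ion and because 1 of them bears on the transcripts measured. A match was defined as codons for threonine or serine, any residue, glycine, tyrosine or phenylalanine, and glycine, read in the annotated frame. In the longest coding sequence of each gene it was present in 77 of the 77 pore-forming members and in 0 of the 17 auxiliary members, although some shorter coding transcripts lacked it. Of 21677 other protein-coding genes, 2.28% held it somewhere in theirs. Of the 14 two-pore genes, 11 held 2 matches in at least 1 coding transcript. The sequences below were read from the GENCODE M21 transcripts (GRCm38), 5′ to 3′ on the coding strand, with the 15 filter bases in capitals and 12 bases on either side.

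Kcnf1: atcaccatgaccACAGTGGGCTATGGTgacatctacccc
Kcnh2: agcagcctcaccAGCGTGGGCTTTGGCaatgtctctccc
Kcnh5: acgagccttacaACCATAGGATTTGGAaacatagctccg
Kcnk2, first filter: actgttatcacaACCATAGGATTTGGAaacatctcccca
Kcnk2, second filter: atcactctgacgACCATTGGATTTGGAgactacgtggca
Kcnk5, first filter: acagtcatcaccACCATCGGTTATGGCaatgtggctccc
Kcnk5, second filter: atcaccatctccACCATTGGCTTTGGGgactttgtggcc

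Members whose mean level reached 1 TPM (transcript count per effective length, scaled to 1000000 a library) held 20 filters, and 17 of the 15-base sequences were distinct. Any pair shared between 8 and 15 bases. The first filter of Kcnk2 and the filter of Kcnh5 have the same 15 bases.

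Most potassium channel genes were at a low level, with a mean below 1 TPM. At least 1 TPM in every line was reached by 12 of 94 members (12.8%), where 51.9% of all protein-coding genes reached it. The 12 comprised 2 inward rectifiers, 4 voltage-gated subunits, 1 calcium-activated channel, 3 two-pore channels and 2 auxiliary subunits. A mean of at least 1 TPM was reached by 20 members, against 53.6% of protein-coding genes, and a mean of at least 10 TPM by 3 members, against 38% of protein-coding genes. The median of the mean levels was 0.0504 TPM over the 94 members and 2.09 TPM over all protein-coding genes. More than 3 estimated counts in every line were found for 44 members (background 67.8%), and 34 members had no more than 3 counts in any line (background 25.9%). A count of 0 in every line was found for 14 members (14.9%, where the background is 18%), of which 10 were voltage-gated, 3 two-pore and 1 auxiliary. Among the voltage-gated ones were Kcna5, Kcnd2 and Kcnd3, and the modifier subunits Kcns1, Kcns2, Kcnv1 and Kcnv2, which carry no current of their own. At these depths, between 66972426 and 73274315 estimated counts a library, a count of 0 allows up to 3 counts, or 0.0409 to 0.0448 CPM (counts scaled to 1000000 a library). Such limits cover counting error only. In bulk samples, fewer cells that express a gene and less RNA per cell cannot be told apart.

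The members' summed level was 183, 157 and 170 TPM in lines 66, 67 and 72. Voltage-gated genes held 72.1% ± 3.13 of it (SD, n = 3) and two-pore genes 14.1% ± 2.17. Calcium-activated genes held 5.19% ± 1.27, inward rectifiers 4.30% ± 1.82 and auxiliary subunits 4.26% ± 1.09. The 20 members with a mean of at least 1 TPM made up 95.9% ± 0.638.

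**Figure D1:**
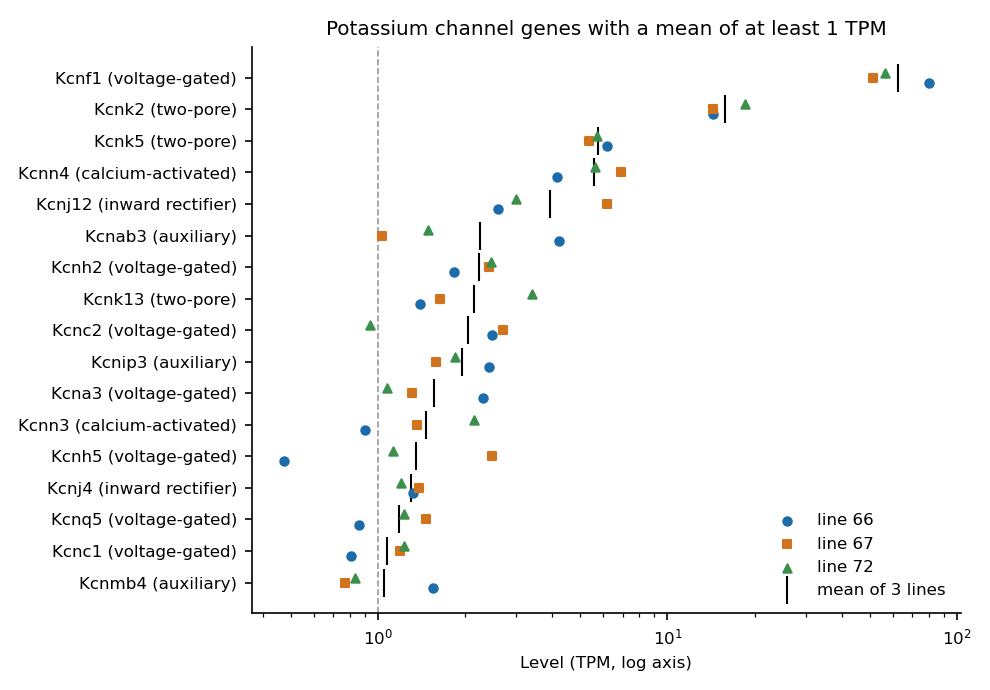
Level in TPM (log axis) of 17 potassium channel genes whose mean reached 1 TPM. Each marker is 1 line, the black bar is the mean of the 3 lines and the dashed line marks 1 TPM; Kcnf1 and Kcnk2 lie above 10 TPM in every line, and the other 15 genes lie below 10 TPM in every line.

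Among voltage-gated genes, Kcnf1 had the highest level. It encodes a modifier subunit that is silent by itself and alters pore-forming subunits when it assembles with them. Kcnf1 (chr12:17172100-17176888, minus strand, GRCm38) reached 79.9 TPM in line 66, 51.1 in line 67 and 56.4 in line 72, from 20639, 12216 and 13691 estimated counts. Line 66 was the highest, 1.56-fold above line 67 (95% interval of the ratio of counts 1.53 to 1.60, exact binomial, counting error only). Kcnb2, which encodes a pore-forming subunit of the kind it assembles with, had 6, 4.02 and 9 counts. The remaining modifier genes were near 0, with at most 8 counts in any line for Kcng1 and 7 for Kcns3.

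Kcnq5, which encodes a subunit of the slow, non-inactivating current that is open near rest, was at 0.861, 1.47 and 1.23 TPM, with line 66 the lowest. Line 67 was 1.70-fold above line 66 (counting interval 1.42 to 2.04). Kcnq1, the slow delayed rectifier of the heart, and Kcnq3, a neuronal subunit, had at most 2 and 29.8 counts in any line.

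Kcnh2, which encodes the rapid delayed rectifier of the heart, was at 1.84, 2.42 and 2.46 TPM. Kcnh5, an ether-a-go-go channel, was at 0.474 TPM in line 66, 2.47 in line 67 and 1.12 in line 72. Line 67 was 5.22-fold above line 66 (counting interval 4.14 to 6.63). Kcnh1, the ether-a-go-go gene named above for human myoblasts, was far lower, at 0.0994, 0.114 and 0.245 TPM from 37, 39 and 82 counts. The 6 neuron markers summed to 20.6, 50.2 and 13.6 TPM in lines 66, 67 and 72, of which Stmn2 alone was 18.9, 49.4 and 12.8. The others did not share one highest line, with Syt1 at 1.27, 0.331 and 0.168 TPM and Snap25 at 0.11, 0.239 and 0.259 TPM, and Rbfox3 had at most 1 count. Their part in the level of Kcnh5 was not tested.

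Delayed rectifiers that open at strong depolarization and allow fast firing are encoded by the Kcnc genes. Kcnc2 was at 2.47, 2.71 and 0.936 TPM, with line 72 lower than both other lines. Kcnc1 stood at 0.810, 1.19 and 1.23 TPM, with line 66 the lowest. Kcna3, best known from T cells, was at 2.30, 1.31 and 1.08 TPM, while Kcna1, a gene of neurons, had at most 2 counts. In the immune list Ptprc, the pan-leukocyte marker, had at most 7 counts, the T cell marker Cd3e at most 2 and the macrophage markers Adgre1 and Lyz2 0 and at most 8, while Cd68 was at 3.90, 2.92 and 4.23 TPM. The transient A-type genes were nearly silent, with Kcnd1 at 0.257, 0.186 and 0.161 TPM and Kcnd2 and Kcnd3 at a count of 0.

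Kcnk2, a mechanically and thermally gated background channel, was among the members above 10 TPM, and little of its level lay on protein-coding transcripts. Its summed level was 14.4, 14.3 and 18.5 TPM from 1071, 903 and 1259 counts. Only 3.22% of that TPM, and 7.02% of the counts, was assigned to protein-coding transcripts. It was the only one of the 20 members with under 50% of its TPM on them, and 12 of the 20 had over 90%. The coding transcript ENSMUST00000079451 held 94.3, 54.7 and 56.8 counts. ENSMUST00000180044, annotated as a target of nonsense-mediated decay, held 919, 787 and 1118 counts, or 6.18, 5.75 and 7.98 TPM. A 334-base transcript annotated as processed, ENSMUST00000193686, held 7.62, 8.17 and 10.1 TPM from only 56.6, 55.3 and 70.0 counts, at an effective length of 155 bases. It supplied 54.7% of the summed TPM of Kcnk2 from 5.63% of its counts.

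The decay-annotated transcript differs from the coding transcript at its start and in an internal exon. Its first exon (chr1:189402113-189402273, minus strand) begins 58081 bases upstream of the first exon of the coding transcript. It also lacks a 118-base exon (chr1:189295594-189295711), a length that leaves a remainder of 1 after division by 3. That exon ends inside the codons of the first selectivity filter, 7 of whose 15 bases are its last bases (in capitals) and 8 of which lie in the next exon. Joining the flanking exons shifts the frame, and the annotated reading frame ends after 152 codons, compared with 414 in the coding transcript. The skipped exon and the new junction are shown because this transcript carries most of the counts. In the second sequence 24 bases precede the junction, and the capitals are the stop codon (chr1:189258785-189258787).

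Skipped exon: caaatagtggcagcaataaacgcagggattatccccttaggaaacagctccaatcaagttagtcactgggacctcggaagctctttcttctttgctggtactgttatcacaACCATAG
Junction to stop: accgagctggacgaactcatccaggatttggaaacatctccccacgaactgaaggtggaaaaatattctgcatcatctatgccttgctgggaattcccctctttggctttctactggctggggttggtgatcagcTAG

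**Figure D2:**
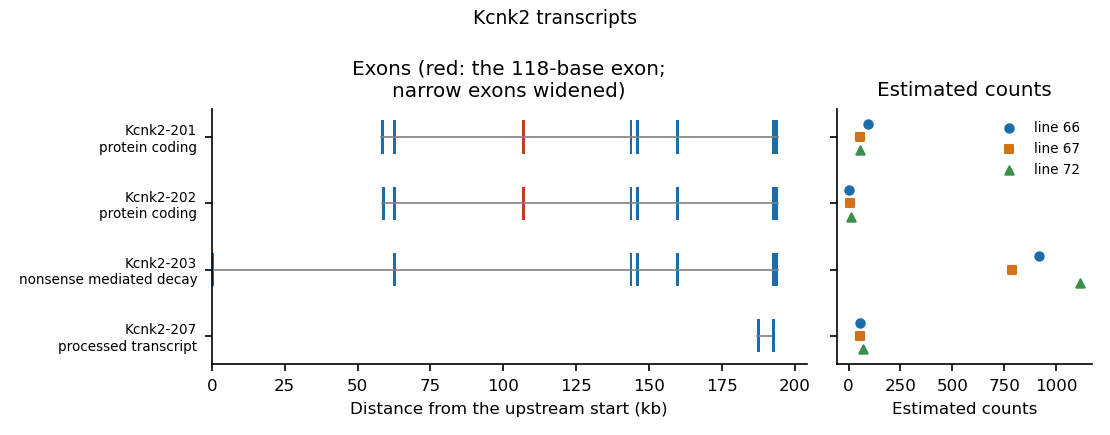
Left, exons of the 4 Kcnk2 transcripts shown, by distance in kb from the start of the upstream exon (positions to scale, narrow exons widened), with the 118-base exon in red. Right, estimated counts in each line; the decay-annotated transcript holds 787 to 1118 counts and each of the others at most 94.3.

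The table deposited holds estimates for whole transcripts and no counts of splice junctions. Among the other coding transcripts, ENSMUST00000194172 and ENSMUST00000194402 carry the upstream exon and keep the 118-base exon, and both had 0 counts in every line. Their annotated last exons are 364 and 355 bases long, while that of the decay-annotated transcript has 2171 bases, which makes it the sole listed transcript that joins the upstream exon to the long last exon. Whether reads over the shared exons were placed with the right transcript was not tested. Kcnk2 also overlaps 2900042K21Rik on the same strand, listed at a mean of 1.22 TPM, and 89.4% of its 31-base words occur in no other listed gene.

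The other two-pore genes above 1 TPM were Kcnk5 and Kcnk13. Kcnk5 (chr14:20140057-20181809, minus strand), a channel closed by extracellular acid, was at 6.19, 5.36 and 5.70 TPM, with the 3 lines within 1.15-fold. Of its TPM 59.6% was on protein-coding transcripts, which held 91.6% of the counts. The rest was on the 654-base processed transcript ENSMUST00000225552. Kcnk13 was at 1.39 and 1.65 TPM in lines 66 and 67 and at 3.42 in line 72, 2.45-fold over line 66 (counting interval 2.10 to 2.87). The acid-sensitive Kcnk3 and Kcnk9 had at most 4 and 2 counts. With protein-coding transcripts alone, the two-pore share of the summed level fell from 14.1% to 4.33% ± 0.787, and that of the voltage-gated genes rose to 81.9% ± 2.85.

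**Figure D3:**
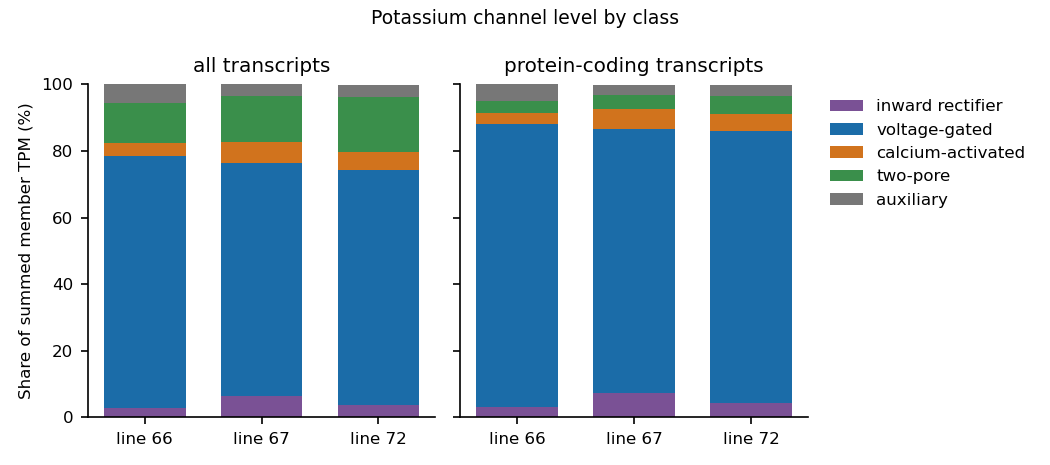
Share of the members' summed TPM in each of the 5 classes, for lines 66, 67 and 72, with all transcripts (left) and with transcripts annotated as protein-coding (right). Voltage-gated genes hold 70.2% to 75.7% on the left and 79.2% to 84.9% on the right, and two-pore genes 12.2% to 16.5% and 3.66% to 5.20%.

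Among the calcium-activated channels, the intermediate-conductance channel Kcnn4 was the highest. Kcnn4 (chr7:24370263-24386690, plus strand), known from proliferating and red blood cells, was at 4.17, 6.89 and 5.64 TPM, highest in line 67 and lowest in line 66. The small-conductance channel Kcnn3 was at 0.903, 1.37 and 2.14 TPM, and 49.3% of this, from 70.7% of its counts, was on a transcript annotated as a retained intron. Kcnn1, at a mean of 0.858 ± 0.413 TPM, lay just below the 1 TPM limit for naming, and the auxiliary gene Kcnmb4 just above it. The large-conductance channel gene Kcnma1 had 28.0, 48.5 and 40 counts, 92.2% of them on protein-coding transcripts. Its summed level of 0.108, 0.355 and 0.466 TPM took 53.8% from a 447-base processed transcript with 0, 2 and 4 counts, so no difference between lines is read from it. Neither of the large-conductance partners Lrrc52 and Lrrc55 had a count, and Lrrc26 and Lrrc38 had at most 2 and 4. Kcnn2 had 7, 4 and 12 counts and the testis-specific gene Kcnu1 had 3, 5 and 5.

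Inward rectifiers were led by Kcnj12, a strong inward rectifier of heart and skeletal muscle. Kcnj12 (chr11:61022564-61071131, plus strand) was at 2.60 TPM in line 66, 6.19 in line 67 and 2.998 in line 72. Line 67 was 2.38-fold above line 66 (counting interval 2.08 to 2.73). Kcnj2, the gene of the same subfamily that is tied to fusion in human myoblasts, was at 0.352, 0.293 and 1.18 TPM, so line 72 was 4.02-fold above line 67 (3.04 to 5.40). The highest line was therefore a different one for each gene, and the ratio of Kcnj12 to Kcnj2 was 7.39, 21.1 and 2.55. Kcnj4, another strong rectifier, was at 1.32, 1.39 and 1.20 TPM, and the counting interval of its highest over its lowest line, 0.917 to 1.46, includes 1. Kcnj3, a G protein-gated subunit, was at 0.219, 1.15 and 0.364 TPM.

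ATP-sensitive channels combine a Kcnj11 or Kcnj8 pore with the sulfonylurea receptor Abcc8 or Abcc9. Kcnj11, the pore of skeletal muscle and pancreas, was at 0.46, 0.566 and 0.349 TPM, and the vascular Kcnj8 had at most 1 count. Abcc9 was at 1.12, 1.26 and 1.68 TPM and Abcc8 at 1.93, 0.619 and 0.719 TPM. In the pericyte list, whose cells are known for Kcnj8, Higd1b had a count of 0 in every line, while Rgs5 was at 356, 137 and 172 TPM.

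Of the 17 auxiliary subunits, 3 reached a mean of 1 TPM. Kcnab3, a beta subunit of Kcna channels, was at 4.23 TPM in line 66, 1.03 in line 67 and 1.49 in line 72. Line 66 was 4.10-fold above line 67 (counting interval 3.35 to 5.04), and both its coding transcript (2.63, 0.697 and 1.15 TPM) and its retained-intron transcript (1.49, 0.317 and 0.337 TPM) were highest there. Kcnip3, a calcium-binding protein that also acts as a transcriptional repressor, was at 2.42, 1.59 and 1.84 TPM. Kcnmb4, a beta subunit of the large-conductance channel, was at 1.56, 0.772 and 0.830 TPM from 102, 38.98 and 37.6 counts, and only 66.7% of its 31-base words occur in no other listed gene. All 3 were highest in line 66. Of the Kcne genes, small subunits that slow or speed their partners, Kcne1l had the highest mean, at 0.43, 0.116 and 0.491 TPM, although Kcne3 and Kcne1 were above it in line 67 at 0.286 and 0.23 TPM. Dpp6, a partner of Kcnd channels, was at 2.69, 1.17 and 1.49 TPM although Kcnd2 and Kcnd3 had no count.

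On the log2(TPM + 1) scale, 2 of the 20 members differed over 2-fold between their highest and lowest line, Kcnab3 (range 1.36) and Kcnh5 (1.24), where 3.88% of all protein-coding genes at this level did. Kcnj12, with a range of 0.997, was just inside the limit. This scale understates the change of low genes, and with a pseudocount of 0.1 the count was 8 of 20 against a background of 6.19%. On log2(TPM + 1) it was 0 without line 66 and 1 without line 67. Each line has 1 library, so no test was run between lines. Line 66 was highest for 6 of the 20, line 67 for 7 and line 72 for 7, where the backgrounds were 29.9%, 25.5% and 44.6%.

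**Figure D4:**
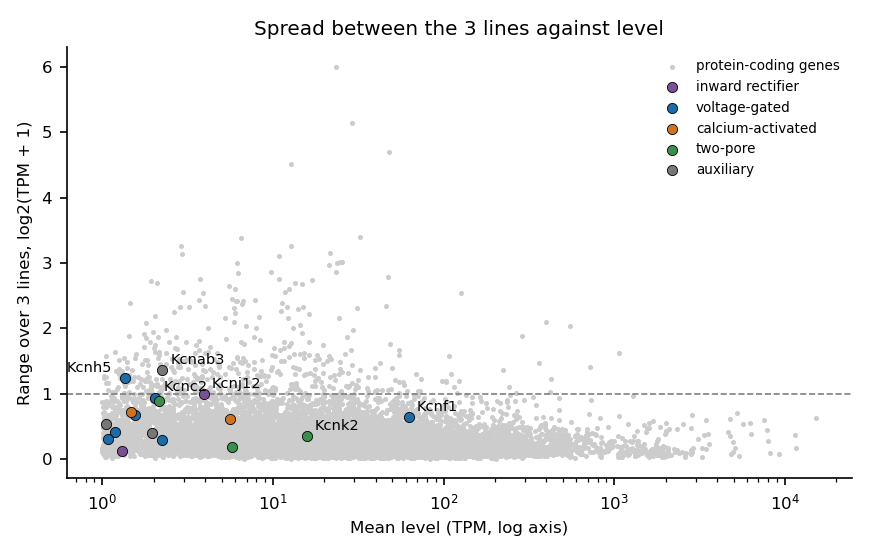
Range over the 3 lines on log2(TPM + 1) against mean level (TPM, log axis) for protein-coding genes whose mean reached 1 TPM (grey) and 17 potassium channel genes, coloured by class. The dashed line marks 2-fold; Kcnab3 and Kcnh5 lie above it, Kcnj12 lies at it, and Kcnf1 and Kcnk2 lie below it at 0.63 and 0.35.

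Chromosome-wide shifts and markers of differentiating muscle were measured beside these differences. In line 66 the genes of chromosome 11 were shifted by a median log2 of 0.32 relative to the other lines (691 genes) and those of chromosome 10 by 0.28 (419 genes), over protein-coding genes whose mean reached 10 TPM and relative to their overall median. Of the members on chromosome 11, Kcnab3 was 1.26 above the mean of the other lines in line 66 on the log2(TPM + 1) scale, after the median difference of protein-coding genes whose mean reached 1 TPM was subtracted, while Kcnj12 was at -0.53 and Kcnj2 at -0.26. On chromosome 10, Kcnmb4 was at 0.55 and Kcnc2 at 0.42 in line 66. In line 67 the chromosome was at -0.09, Kcnmb4 at -0.27 and Kcnc2 at 0.54. In line 72 the chromosome was at -0.19, Kcnmb4 at -0.28 and Kcnc2 at -0.95. Markers of differentiating muscle were lowest in line 66 for 10 of 10 genes and highest in line 72 for 9 of 10, with summed levels of 1345, 1918 and 2538 TPM in lines 66, 67 and 72. Of the 20 members, 5 (among them Kcnh2, Kcnk13, Kcnn3 and Kcnc1) were likewise highest in line 72 and lowest in line 66, a share of 25% where the background is 27.5%. The part of chromosome shifts and of differentiation in the levels was not tested.

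A list of 36 genes held channel partners, transporters, other ion channels, transcription factors and fusion genes. Of the 36, 21 (58.3%) had at least 1 TPM in every line, where the background is 51.9%. The 21 include all 5 transcription factor and fusion genes (Myog, Mef2c, Rest, Mymk and Mymx), which are not channel partners. Of the sodium pump, which builds the potassium gradient, the beta subunit Atp1b3 was at 115, 126 and 124 TPM and Atp1b1 at 11.7, 14.5 and 28.8 TPM, highest in line 72. The potassium chloride cotransporters Slc12a4 and Slc12a7 were at 63.1 ± 1.65 and 25.4 ± 1.39 TPM, and the neuronal Slc12a5 at 0.352 ± 0.107. Channels that pass potassium in internal membranes were also well above most members. Tmem38a, a cation channel of the sarcoplasmic reticulum, was at 18.2, 24.2 and 31.1 TPM, Tmem38b at 14.2, 23.7 and 24.1 TPM, and the lysosomal Tmem175 at 13.3, 10.3 and 12.3 TPM. The pacemaker genes Hcn2, Hcn3 and Hcn4 were below 1 TPM in every line.

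Among other genes of muscle excitability, the adult sodium channel Scn4a was at 1.06, 1.52 and 2.49 TPM. Cacna1s, the voltage sensor of excitation-contraction coupling, was at 4.51, 7.64 and 9.40 TPM and the muscle chloride channel Clcn1 at 0.821, 0.387 and 0.451 TPM. The transcription factors Myog and Mef2c were at 168, 222 and 310 TPM and at 19.9, 39.9 and 48.8 TPM, and the fusion genes Mymk and Mymx at 67.6, 106 and 119 TPM and at 11.5, 18.3 and 27.4 TPM. All 4 were lowest in line 66 and highest in line 72. Rest, a repressor of neuronal genes, was at 25.2, 25.5 and 28.3 TPM.

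**Figure D5:**
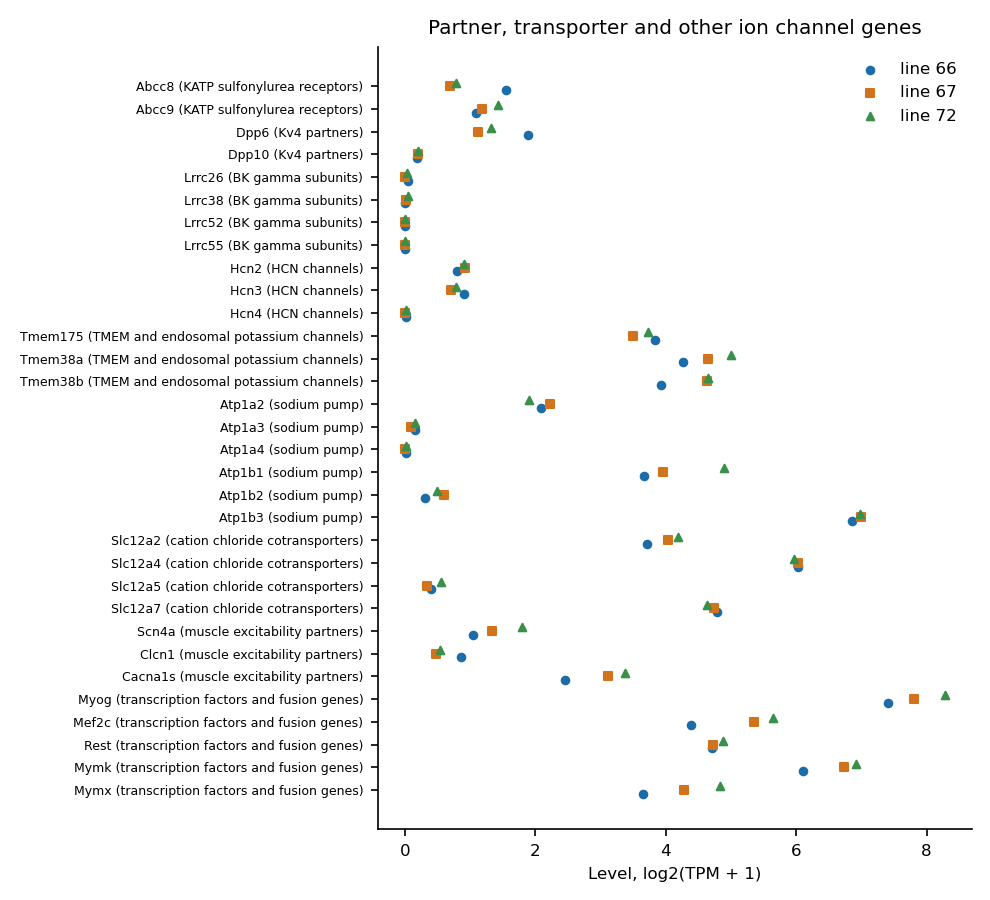
Level on log2(TPM + 1) of 32 partner, transporter, other ion channel, transcription factor and fusion genes in the 3 lines, with the list each belongs to in parentheses. Myog and Atp1b3 lie furthest to the right, and the 4 large-conductance (BK) gamma subunits lie at or near 0.

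The labelled cell type was checked against its markers. All 8 myoblast markers, among them Pax7, Myf5 and Myod1, were above 1 TPM in every line, with a summed level between 2379 and 2515 TPM. Summed levels were 1.17 to 2.14 TPM for 6 endothelial markers, 3.07 to 4.47 for 5 immune markers, 1.44 to 2.02 for 5 Schwann and glia markers and 0.283 to 0.527 for 6 pluripotent markers. Of 9 pericyte and smooth muscle markers, 3 (Rgs5, Tagln and Acta2) were above 1 TPM in every line, and their list summed to 485 to 858 TPM. Of 6 fibro-adipogenic markers, Col3a1 was above 1 TPM and the list summed to 146 to 270 TPM, while Lum and Dpt had no count.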

How the data were processed

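Poly-A RNA libraries of 3 myoblast lines, 1 group, were used. Per transcript, the authors deposited the estimated count (not normalized), the TPM value (count per effective length, scaled to 1000000), and the other columns, annotated and effective length. The submitters' processing notes name bcl2fastq 2.20, fastp 0.20, kallisto 0.46.1 and GRCm39. The annotation release is not given in the sources used here. Of 121798 transcripts, 120686 matched GENCODE M21 (GRCm38) by identifier, which gave symbols, types and coordinates. The 1112 others were left out (0.493% to 0.535% of counts). Both measures were summed per gene.

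With 1 group, no test between conditions was run. Levels are TPM per line or mean ± SD. Lines were compared on log2(TPM + 1), and ratios of counts have 95% exact binomial (Clopper-Pearson) intervals. Pairs of lines had Pearson correlations of 0.982 to 0.988 across 11714 genes, not independent replicates, and their counts differed beyond sampling noise (chi-square per degree of freedom 72.2 to 121). The members and lists were chosen with earlier results of these data known. Named genes are members with a mean of at least 1 TPM, those with the largest range, those beside that limit, counts of members at 0, and the partner list. Some genes and sequences that fall under this rule are not reported here. Further low members were named after their values were seen. The count of genes over 2-fold apart and the ratio intervals were checked on simulated counts that held counting noise only. The genes changed in the simulation excluded those of lowest level. The check therefore does not cover noise beyond counting, which these libraries show, or changes in low genes. Alternatives used estimated counts rounded to whole numbers, with edgeR 4.0.16 and DESeq2 1.42.0 for scaling only. Other tools were pandas 2.3.3, numpy 2.4.6, Biopython 1.88, scipy 1.17.1, matplotlib 3.10.9, Python 3.11.15 and R 4.3.3.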

Additional observations from a re-analysis of the deposited data

Results flagged for a closer look

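The 5 genes with a Kcn symbol that are not protein-coding lay outside the genes described. Among them, Kcnq1ot1, the long antisense transcript of the imprinted region around Kcnq1, had a signal in every line, above the detection limit of 3 counts. It had 545 estimated counts in line 66, 591 in line 67 and 758 in line 72, and the lowest of these was the reason for a closer look. Its mean level was 0.178 ± 0.0352 TPM, while Kcnq1 had at most 2 counts. The protocol marks strand, but the strand setting used in counting is not given in the sources used here.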

How the results depend on the processing

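The number of members with at least 1 TPM in every line, 12, became 20 at 0.5 TPM (54.8% of protein-coding genes), 44 with more than 3 counts (67.8%), 20 with CPM (53.5%), 10 with protein-coding transcripts (50.4%) and 18 with annotated lengths (52.5%, an alternative chosen after seeing the data). Leaving out each line gave 12 to 17. The number over 2-fold apart, 2, became 0 of 3 with a mean of at least 10 TPM (2.06% of protein-coding genes), 8 of 20 with a pseudocount of 0.1 (6.19%), 7 of 24 with TMM-scaled CPM (4.6%) and 7 of 24 with DESeq2 size factors (4.59%). None of these backgrounds was matched to the members in level. Leaving out each line gave 0 to 2: the number was 0 without line 66, 1 without line 67 and 2 without line 72. With CPM, which is not divided by length, the shares were 85.2% voltage-gated, 6.33% two-pore, 3.40% calcium-activated and 2.23% auxiliary. With protein-coding transcripts alone, voltage-gated and two-pore shares were 81.9% and 4.33%. With annotated lengths they were 76.4% and 10.4%. A share or level was called moved when it differed from its main value by more than the SD over the lines. A count was called moved beyond a set ratio, under which the changes from 12 to 18 and from 12 to 17 were not. By these rules 17 of 47 alternative values of the counts and shares moved, as did 45 of 140 for named members and 12 of 72 for lists. Kcnf1 stayed the highest member with CPM, annotated lengths and protein-coding transcripts. Apart from settings with fewer genes or samples, the cause of these shifts was not tested. No paired analysis was possible because the lines form 1 group. The 34 members with no more than 3 counts in any line did not pass the detection limit used here, and 14 of them had a count of 0 in every line. Whether the few counts of the others were misplaced reads was not tested.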
